A study of Rattus norvegicus with 22 samples.

Results

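The expression of 8 rat genes of fatty acid oxidation was followed across maternal and embryonic tissues. They are known as targets of PPAR-alpha: Cpt1a, Acaa2, Abcd3, Ehhadh, Ech1, Cyp4a1, Acot1 and Fgf21. They were chosen by gene symbol, and both they and the longer pathway list used below were chosen with earlier results of these data known. Counts of these genes set beside the share of all probe sets are therefore descriptions, not independent tests. All probe sets carrying 1 of these symbols alone were used, which gave 9 probe sets out of 15866 in the table (8 genes out of 10411). Cpt1a had 2 probe sets and each other gene had 1. A further probe set is shared by Acot2 and Acot1 and was kept apart. The symbol of the Cyp4a1 probe set rests on its gene identifier, while the transcript accession listed beside it belongs to Cyp4b1 in the reference gene table, so its identity is uncertain.

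Pregnant Wistar rats had been dosed daily with vehicle, with EMD 82571 at 50 or 150 mg/kg/day (EMD50 and EMD150 below), or with retinoic acid at 12 mg/kg/day (RA). EMD 82571, named MSC1096199 in the design text, is a calcium sensitiser, a class of drugs that raises the response of muscle filaments to calcium, and retinoic acid is a vitamin A derivative known to disturb embryonic development. Whole embryos were taken at gestational day 12, livers and bone of the embryos at day 20, and livers of the dams on both days. Every 1 of these 5 sets of arrays held 1 control, 1 EMD50, 1 EMD150 and 1 RA array, and both day 12 sets held a second RA array (coded RA5 and RA56, which the labels do not explain). The protocols give dosing on days 6 to 11 and 6 to 17, while the design text gives days 6 to 17 only, so day 12 and day 20 samples may differ in the length of dosing as well as in gestational age. The labels state neither the age of the dams, nor whether RNA was pooled, nor which samples share a dam or litter, so p-values measure the spread between these arrays only.

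Long-chain fatty acids enter mitochondria as carnitine esters, in a step controlled in liver by the enzyme that Cpt1a encodes, and are then shortened by beta-oxidation. Very long chains and dicarboxylic acids are shortened in peroxisomes, and microsomal cytochromes of the Cyp4a family start a side route from the far end of the chain. PPAR-alpha, a nuclear receptor that binds fatty acids and pairs with the retinoid X receptor, raises the transcription of many of these genes in rodent liver during fasting and exposure to peroxisome proliferators. The hormone gene Fgf21 is among its hepatic targets.

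The stretch of 250 bases before the start site is printed for Cpt1a, Abcd3 and Fgf21, which were higher at day 20 in maternal liver, and for Ehhadh, which was not. Sequences are from RefSeq on build GRCr8, 5′ to 3′ on the strand of the gene, at chr1:209995910-209996159 (plus strand) for Cpt1a, chr2:212590380-212590629 (minus strand) for Abcd3, chr1:105221377-105221626 (minus strand) for Fgf21 and chr11:92746159-92746408 (plus strand) for Ehhadh. Capitals mark matches, on either strand, to the GC box GGGCGG, the CCAAT box CCAAT and the TATA box TATAAA; a match on the other strand reads CCGCCC or ATTGG.
Cpt1a: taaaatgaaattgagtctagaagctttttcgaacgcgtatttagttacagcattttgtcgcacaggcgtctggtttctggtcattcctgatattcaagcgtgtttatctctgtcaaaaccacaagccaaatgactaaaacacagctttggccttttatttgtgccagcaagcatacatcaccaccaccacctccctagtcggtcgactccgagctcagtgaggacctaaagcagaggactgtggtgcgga
Abcd3: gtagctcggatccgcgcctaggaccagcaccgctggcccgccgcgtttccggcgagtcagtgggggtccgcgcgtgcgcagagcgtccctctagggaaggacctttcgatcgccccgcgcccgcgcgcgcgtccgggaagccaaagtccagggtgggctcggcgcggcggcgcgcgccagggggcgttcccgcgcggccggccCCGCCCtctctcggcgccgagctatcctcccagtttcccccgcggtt
Fgf21: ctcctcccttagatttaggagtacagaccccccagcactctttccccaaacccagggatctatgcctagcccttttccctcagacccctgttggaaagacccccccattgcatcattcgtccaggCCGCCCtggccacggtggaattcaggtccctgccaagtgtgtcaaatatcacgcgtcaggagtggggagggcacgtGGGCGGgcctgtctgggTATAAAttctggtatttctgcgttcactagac
Ehhadh: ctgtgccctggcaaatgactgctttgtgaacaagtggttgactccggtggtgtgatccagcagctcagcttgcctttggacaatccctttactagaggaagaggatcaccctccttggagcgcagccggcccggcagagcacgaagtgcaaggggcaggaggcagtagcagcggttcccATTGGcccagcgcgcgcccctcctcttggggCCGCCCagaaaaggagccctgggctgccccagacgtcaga
Promoters were matched by symbol for 5 of the 8 genes; Ech1, Cyp4a1 and Acaa2 were not matched. The direct repeat that PPAR-alpha binds with its partner, searched as a pair of AGGTCA copies with 1 base between them, was in 0 of these 5 stretches and in 0.0508% of 33469 rat promoters of the same length. A lone AGGTCA was in 0 of 5 and in 14.1% of all. The GC box was in 3 of 5 (Abcd3, Ehhadh and Fgf21) against 30.5% of all, the CCAAT box in 2 of 5 (Ehhadh and Acot1) against 34%, and the TATA box in 1 of 5 (Fgf21) against 12.9%. No match says only that these letters are not in this window.

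Values are log2 probe set levels, and a difference of 1 is a 2-fold difference. The array medians ran from 8.09 to 8.22. The tissue labels were checked with Alb (serum albumin), at 15.13 or more in the maternal livers and 14.93 or more in the embryo livers, and with Col1a1 (bone collagen), at 14.55 or more in bone. Some arrays carried genes of another tissue. The RA maternal liver of day 20 had a mean of 9.79 over 11 skeletal muscle markers, against 7.01 to 7.21 in the other maternal livers. The mean over 9 pancreatic acinar markers was 10.48 and 9.76 in the control and EMD50 maternal livers of day 12 and 9.11 in the control of day 20, against 7.52 to 7.81 in the others. In bone, Alb was at 13.60 in both the control and the RA array, against 10.70 (EMD50) and 9.44 (EMD150), and the 3′ minus 5′ probe sets of GAPDH, a sign of RNA integrity, differed by 2.72 in the EMD50 bone array and by 0.859 at most elsewhere. In whole embryo, which holds a liver of its own, Alb was highest in the RA56 array, at 12.00 against 8.585 to 10.19, although the mean over 10 hepatocyte markers was higher in RA5 (8.94) than in RA56 (8.62).

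**Figure D1:**
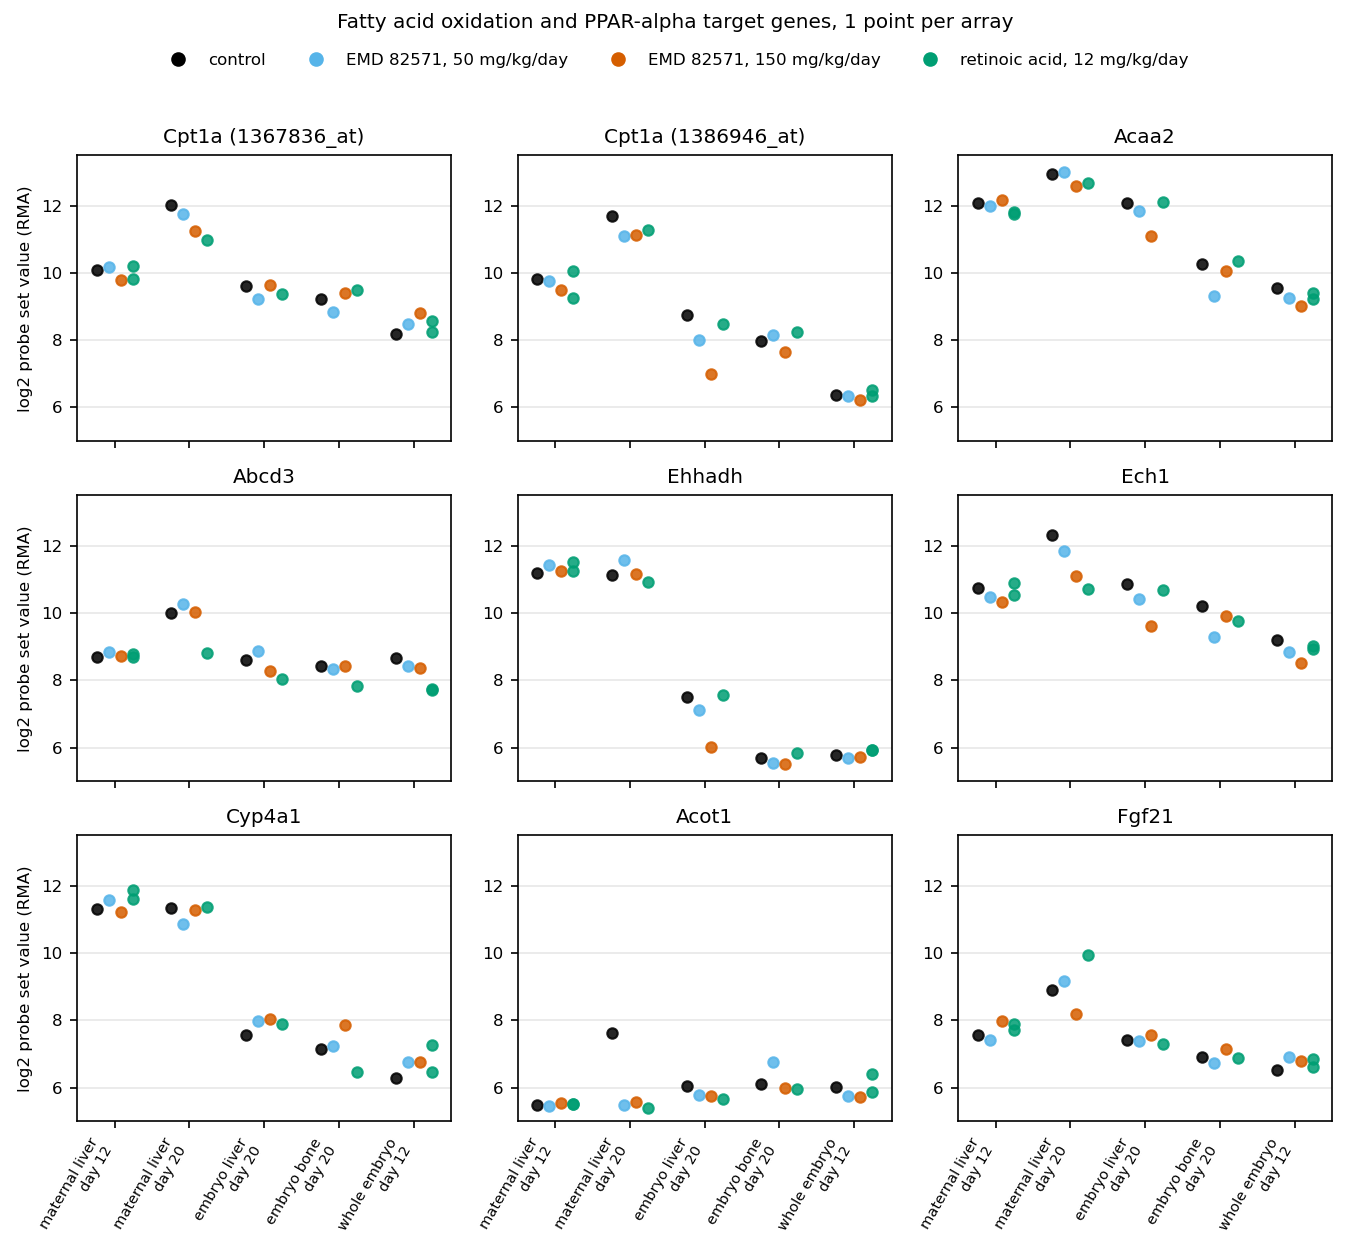
Log2 level of each of the 9 probe sets (vertical axis) in the 22 arrays, by tissue and gestational day (horizontal axis); each point is 1 array and its colour gives the treatment. Ehhadh and Cyp4a1 are at 10.88 or more in all maternal livers and at 8.05 or less elsewhere, and Acot1 reaches 7.62 only in the control maternal liver of day 20.

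Late pregnancy was compared with mid-gestation in maternal liver, over the treatments. Of the 9 probe sets, 5 rose from day 12 to day 20 and none fell: both of Cpt1a, the entry enzyme of mitochondria, and those of Acaa2, the last enzyme of the mitochondrial spiral, Abcd3, a peroxisomal importer of acyl-CoA, and Fgf21, a hepatic hormone of fasting. Of all probe sets, 2.46% rose, 3.62% fell and 6.08% changed either way (limma, adjusted p under 0.05). Cpt1a was higher by 2.71-fold and 3.05-fold, while Ehhadh and Cyp4a1, both familiar PPAR-alpha targets, were not called, at -0.14 and -0.26.

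Probe set 1367836_at of Cpt1a read 10.10 in the control, 10.18 in EMD50, 9.80 in EMD150, 10.20 in RA5 and 9.82 in RA56 at day 12. At day 20 it read 12.01 in the control, 11.75 in EMD50, 11.25 in EMD150 and 10.99 in RA. Every day 20 array was above every day 12 array, and the control was the highest of day 20. The rise was 1.44 ± 0.15 (SE, 9 arrays, limma adjusted p = 0.00335), or 2.71-fold. The other Cpt1a probe set, 1386946_at, read 9.82, 9.78, 9.50, 10.07 and 9.27 at day 12 in the same order, and 11.69, 11.10, 11.12 and 11.29 at day 20. It again had no overlap between the days, with a rise of 1.61 ± 0.16 (limma adjusted p = 0.00295), or 3.05-fold. Both probe sets of Cpt1a were called under each of the 16 alternatives tried, leaving out any 1 array included.

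Acaa2, which encodes the mitochondrial 3-ketoacyl-CoA thiolase, read 12.08, 11.99, 12.17, 11.75 and 11.81 at day 12 and 12.96, 13.01, 12.58 and 12.68 at day 20. The days did not overlap, and the EMD150 array showed the smallest day difference, 0.41 against 0.87 to 1.02 in the other treatments. The rise was 0.81 ± 0.11 (limma adjusted p = 0.00700), or 1.75-fold, and it too was called under every alternative, at an adjusted p of 0.0465 at most.

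Among the peroxisomal genes, Abcd3 lay within 8.69 to 8.85 in all 5 arrays of day 12. At day 20 it stood at 9.996 in the control, 10.26 in EMD50 and 10.04 in EMD150, but at 8.80 in RA. The RA array of day 20 thus overlapped with day 12, and the other 3 were above it. The day difference was 1.31, 1.40 and 1.31 in the control, EMD50 and EMD150 pairs and 0.07 with RA. Over the treatments the rise was 0.95 ± 0.21 (limma adjusted p = 0.0372). That call was lost without an intensity trend (adjusted p = 0.0561) and without the control, EMD50 or EMD150 array of either day (0.122 to 0.158).

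Ech1, an enoyl-CoA isomerase of mitochondria and peroxisomes, read 10.74, 10.47, 10.32, 10.89 and 10.55 at day 12. At day 20 it was at 12.31 in the control, 11.84 in EMD50, 11.10 in EMD150 and 10.72 in RA. The day difference accordingly ran from 1.58 in the control pair, 1.38 in EMD50 and 0.78 in EMD150 to 0.00 with RA, whose arrays overlapped. The estimate over treatments, 0.86 ± 0.24, did not pass (limma adjusted p = 0.0697). Without the RA array of day 20 it was 1.24 and passed (limma adjusted p = 0.00254), and without the RA5 array of day 12 it was 0.98 (limma adjusted p = 0.0486).

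Ehhadh, the bifunctional enzyme of peroxisomal beta-oxidation, read 11.20, 11.42, 11.26, 11.51 and 11.26 at day 12 and 11.14, 11.57, 11.17 and 10.92 at day 20. The days overlapped, with a difference of -0.14 ± 0.12 (limma adjusted p = 0.510). Cyp4a1, a fatty acid omega-hydroxylase, read 11.32, 11.58, 11.22, 11.89 and 11.62 at day 12 and 11.34, 10.88, 11.28 and 11.39 at day 20. It overlapped as well, at -0.26 ± 0.14 (limma adjusted p = 0.302).

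Acot1, a cytosolic thioesterase that releases free fatty acid from acyl-CoA, stood apart in a single array. It lay between 5.47 and 5.54 at day 12 and at 5.48, 5.58 and 5.40 in the EMD50, EMD150 and RA livers of day 20, but at 7.62 in the control liver of day 20. The probe set shared by Acot2 and Acot1 was also highest there, at 8.18, against 6.73 to 7.09 in the other livers of day 20 and 6.47 to 6.62 at day 12. Acot1 was not called for the day (0.47 ± 0.31, limma adjusted p = 0.412), and without the control of day 20 its estimate was close to 0, at -0.03. The high values of both probe sets thus stand in 1 array, in which the acinar marker mean was 9.11. That mean was 10.48 and 9.76 in the control and EMD50 livers of day 12. There Acot1 read 5.50 and 5.47, and the shared probe set 6.52 and 6.55. The part of acinar RNA in the high values was not tested.

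Fgf21 read 7.57, 7.42, 7.98, 7.89 and 7.70 at day 12 and 8.91, 9.16, 8.20 and 9.93 at day 20, with no overlap. The smallest day difference was 0.22, in the EMD150 pair, and the largest 2.14, in RA. The rise was 1.42 ± 0.25 (limma adjusted p = 0.0181), or 2.68-fold. It was not called without the control or EMD50 array of either day (adjusted p of 0.0680 to 0.0782). The highest Fgf21 value was that of the RA liver that carried the muscle markers; without that array the rise was 1.10 and was called (limma adjusted p = 0.0198).

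In all, 4 of the 9 probe sets had every day 20 array above every day 12 array (both of Cpt1a, Acaa2 and Fgf21), against 5.52% of all probe sets, and 0 had the reverse, against 4.73%. In bulk liver a change in the share of hepatocytes and a change in RNA per hepatocyte cannot be told apart. The mean over 10 hepatocyte markers was 12.12 to 12.29 at day 12 and 12.44 to 12.51 at day 20, and its part in these values was not tested.

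**Figure D2:**
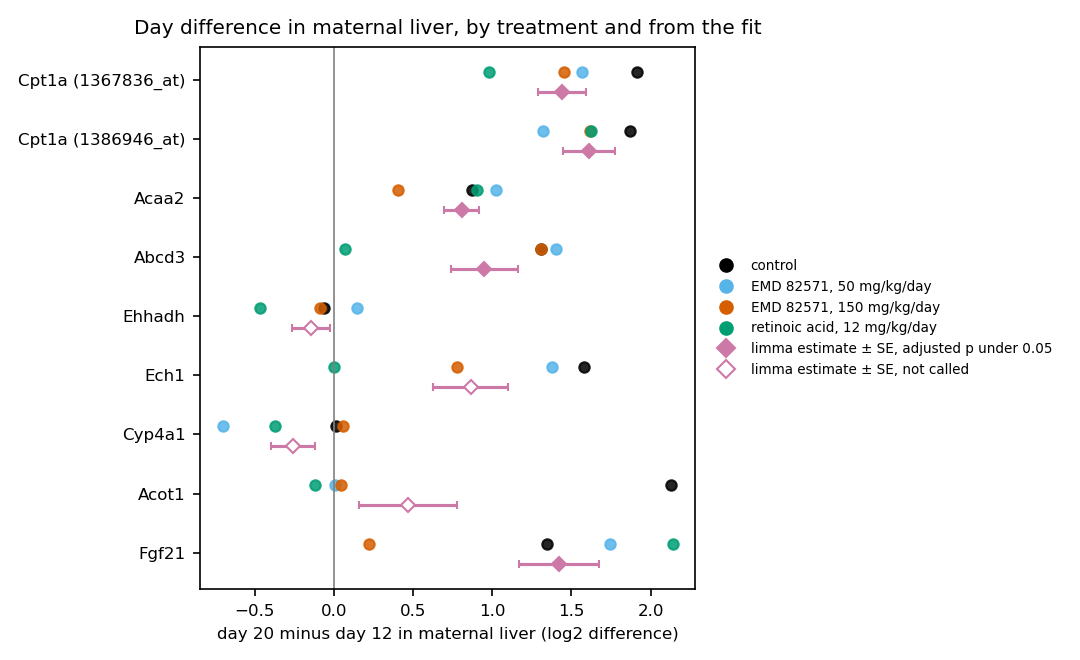
Day 20 minus day 12 in maternal liver (horizontal axis, log2 difference) for each probe set; circles are the treatments (RA is set against the mean of both day 12 RA arrays), and diamonds the limma estimate with its SE, filled where the adjusted p is under 0.05. Both Cpt1a probe sets lie right of 0 in each treatment, Abcd3 and Ech1 are near 0 with RA, and Acot1 is high in the control pair alone.

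Of 83 other genes measured with a role in fatty acid oxidation or PPAR-alpha signalling, 9 rose (10.8%, against 2.46% of all probe sets) and 4 fell from day 12 to day 20. Together 13 of 83 (15.7%) were called, against 6.08% of all probe sets, while their median difference was 0.03 against 0.02 over all. Those that rose most were Hacl1, of peroxisomal alpha-oxidation (1.24 ± 0.28, limma adjusted p = 0.0383), Acat1, of ketone body metabolism (0.86 ± 0.10, 0.00431), and Vnn1, a pantetheinase and PPAR-alpha target (0.76 ± 0.11, 0.00860). Those that fell most were Me1, the lipogenic malic enzyme (-1.24 ± 0.14, 0.00340), Ncor1, a nuclear receptor corepressor (-0.60 ± 0.14, 0.0463), and Acox2, an oxidase of branched chains and bile acid precursors (-0.57 ± 0.10, 0.0169).

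Of the carnitine steps around Cpt1a, 3 of 8 genes were higher, against 2.46% of all probe sets, with no test of the role as a group. The genes of this paragraph were picked after their values were seen. Cpt2, which reverses the carnitine transfer inside mitochondria, rose by 0.54 ± 0.12 (limma adjusted p = 0.0394), Slc25a20, the carnitine carrier of the inner membrane, by 0.57 ± 0.12 (0.0283), and Mlycd, which breaks down the malonyl-CoA that inhibits Cpt1a, by 0.57 ± 0.14 (0.0452). Of 15 other genes of the mitochondrial spiral, 0 rose and 1 fell, the isomerase Eci2 (-0.50 ± 0.10, 0.0276), with a median over the 15 of 0.28. The 15 leave out the member Acaa2, which rose as given above. The receptor Ppara itself rose by 0.61 ± 0.09 (limma adjusted p = 0.0115): it lay between 7.34 and 7.62 at day 12 and between 7.92 and 8.24 at day 20. Acot2, a mitochondrial thioesterase, rose by 0.70 ± 0.16 (0.0412), and Txnip, an inhibitor of thioredoxin, by 0.61 ± 0.11 (0.0193). These counts leaned on single arrays, running from 2 higher and 1 lower without the control of either day to 15 higher and 8 lower without the RA array of day 20.

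**Figure D3:**
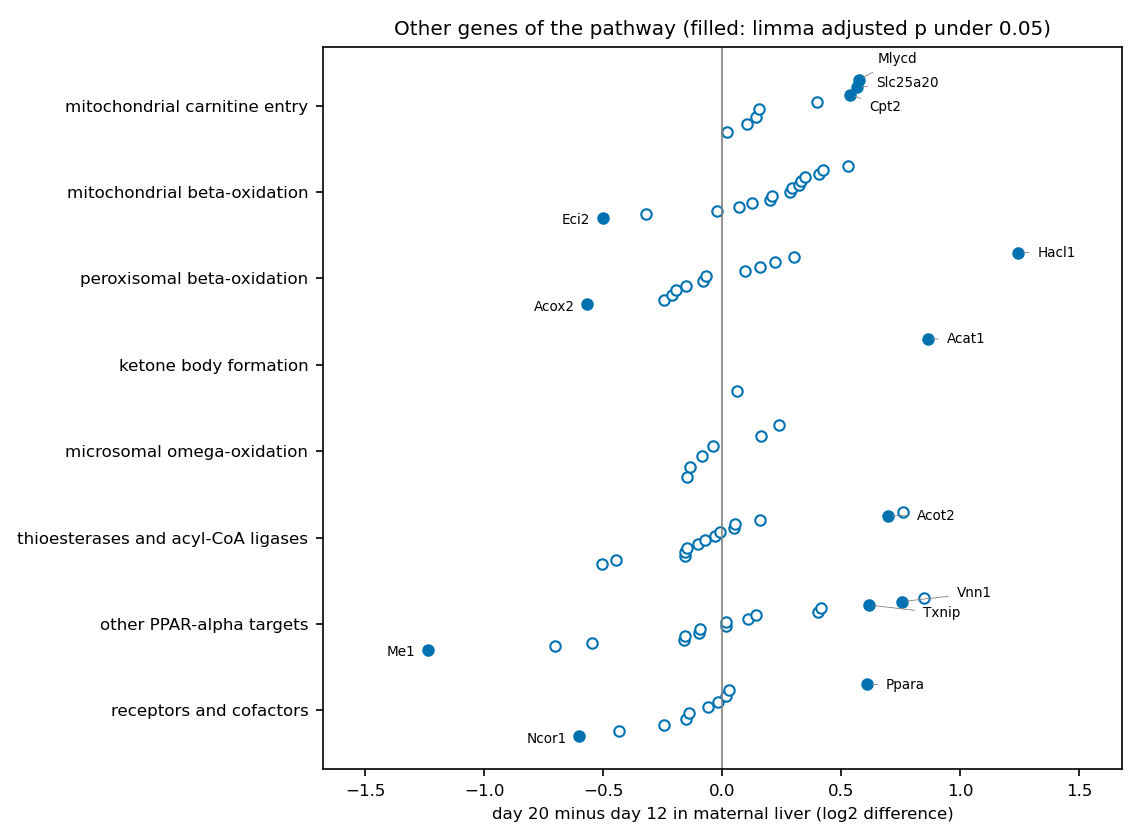
Day 20 minus day 12 in maternal liver (horizontal axis, log2 difference) for 83 other genes of the pathway, by role (vertical axis); each circle is 1 gene, filled and named where limma's adjusted p is under 0.05. Filled circles on the right include 3 of 8 carnitine genes and Ppara, and those on the left are Eci2, Acox2, Me1 and Ncor1.

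The next comparison asked where these genes are expressed. In embryo liver at day 20, 8 of 9 probe sets were lower than in maternal liver of that day, against 15.5% of all probe sets lower and 30.2% changed. The gap was widest for Ehhadh, at -4.16 ± 0.25 (limma adjusted p = 5.63e-07), or 17.8-fold, and Cyp4a1, at -3.35 ± 0.22 (1.1e-06), or 10.2-fold. The 4 maternal livers of day 20 held Ehhadh between 10.92 and 11.57, and the 4 embryo livers between 6.01 and 7.56. Cyp4a1 lay between 10.88 and 11.39 and between 7.56 and 8.05. Neither gene overlapped between the livers, and the share of all probe sets without overlap is not given here.

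Both Cpt1a probe sets were lower in embryo liver, but by different amounts: -2.05 ± 0.21 for 1367836_at (limma adjusted p = 3.14e-05) and -3.24 ± 0.22 for 1386946_at (1.22e-06). Smaller gaps were found for Fgf21 (-1.63 ± 0.27, 0.000916), Abcd3 (-1.33 ± 0.16, 0.000110), Ech1 (-1.10 ± 0.28, 0.0127) and Acaa2 (-1.03 ± 0.23, 0.00538). Acaa2 thus stood within 11.09 to 12.10 in embryo liver, against 12.58 to 13.01 in the mother. The Ech1 call was lost without the control or EMD50 maternal liver or the EMD150 embryo liver (adjusted p of 0.0526 to 0.0568). Acot1 was not called (-0.20 ± 0.34, limma adjusted p = 0.709).

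Of the 83 other pathway genes, 53 were lower (63.9%, against 15.5% of all probe sets) and 3 higher in embryo liver (3.61%, against 2330 of 15866). Their median was -0.83 against 0.05 over all probe sets. The largest gaps were those of Apoa5, a regulator of plasma triglyceride (-4.98 ± 0.13), Slc27a5, a bile acid and fatty acid ligase (-3.18 ± 0.16), and Angptl4, an inhibitor of lipoprotein lipase (-2.94 ± 0.17). The 3 that were higher were Ucp2, a mitochondrial carrier (2.75 ± 0.11), Cyp4a8 (0.61 ± 0.14) and Cpt1b, the muscle form of the Cpt1 enzyme (0.54 ± 0.16). Ppara was not called (-0.14 ± 0.13, limma adjusted p = 0.463), whereas its partner receptor Rxra, chosen after its values were seen, was lower (-0.67 ± 0.11, limma adjusted p = 0.000830). The red cell marker mean was 13.17 to 13.29 in embryo liver and 9.67 to 10.13 in the mother, and the part of blood-forming cells in these gaps was not tested.

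From embryo liver to embryo bone, 3 of 9 probe sets were lower still, against 27.5% of all probe sets (52.2% changed either way), so this share is close to the background. They were Acaa2 (-1.78 ± 0.23, limma adjusted p = 9.82e-05), Ehhadh (-1.39 ± 0.25, 0.00111) and Cyp4a1 (-0.69 ± 0.22, 0.0244). Ehhadh read 5.69 in the control, 5.54 in EMD50, 5.52 in EMD150 and 5.85 in RA bone, all below the lowest embryo liver. The control and RA arrays, with Alb at 13.60, were the higher ones. Afp was at 12.34 in the control but at 7.58 in RA, and the part of liver RNA in them was not tested. The Cyp4a1 call was lost without the control bone, the RA bone, or the EMD50 or RA embryo liver (adjusted p of 0.0504 to 0.0825). Cpt1a was not called by either probe set, at -0.21 ± 0.21 and -0.05 ± 0.22 for its probe sets (limma adjusted p = 0.409 and 0.854). Of the other pathway genes, 60 were lower (72.3%, against 27.5% of all probe sets) and 8 higher (9.64%, against 3920 of 15866). They were led by Fabp1, the liver fatty acid binding protein (-4.45 ± 0.28), and by Fgfr1, the receptor through which Fgf21 signals together with beta-klotho (3.27 ± 0.17).

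At day 12, all 9 probe sets differed between whole embryo and maternal liver, 8 of them lower in the embryo; of all probe sets 34.8% were lower and 35.8% higher, or 70.6% together. Ehhadh showed the widest gap, -5.52 ± 0.09 (10 arrays, limma adjusted p = 4.31e-11), or 45.9-fold. Its 5 embryo values lay between 5.69 and 5.94, and its 5 maternal values between 11.20 and 11.51. The difference was -4.82 for Cyp4a1, -3.33 for Cpt1a by 1386946_at and -1.57 by 1367836_at, -2.67 for Acaa2 and -1.70 for Ech1. Fgf21 and Abcd3 had the smallest gaps in this direction, -0.97 ± 0.11 (limma adjusted p = 2.29e-05) and -0.57 ± 0.14 (0.00587). Acot1 was the exception: it was higher in the embryo, by 0.44 ± 0.10 (limma adjusted p = 0.00258), with values of 5.72 to 6.39 against 5.47 to 5.54. These values lie close to the lowest of the table, 4.86. The probe set shared by Acot2 and Acot1 went the other way, at 5.85 to 6.28 in the embryo against 6.47 to 6.62 in maternal liver. Of the other pathway genes, 70 were lower and 5 higher in the embryo. Fabp1 was the lowest (-7.27 ± 0.25), followed by Cyp4f1 (-5.61 ± 0.14) and Slc27a5 (-5.55 ± 0.10), and those most above maternal liver were Fgfr1 (2.52 ± 0.11), Fabp3, the muscle form of the fatty acid binding proteins (1.16 ± 0.14), and Acsl3, an acyl-CoA ligase (0.85 ± 0.14).

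**Figure D4:**
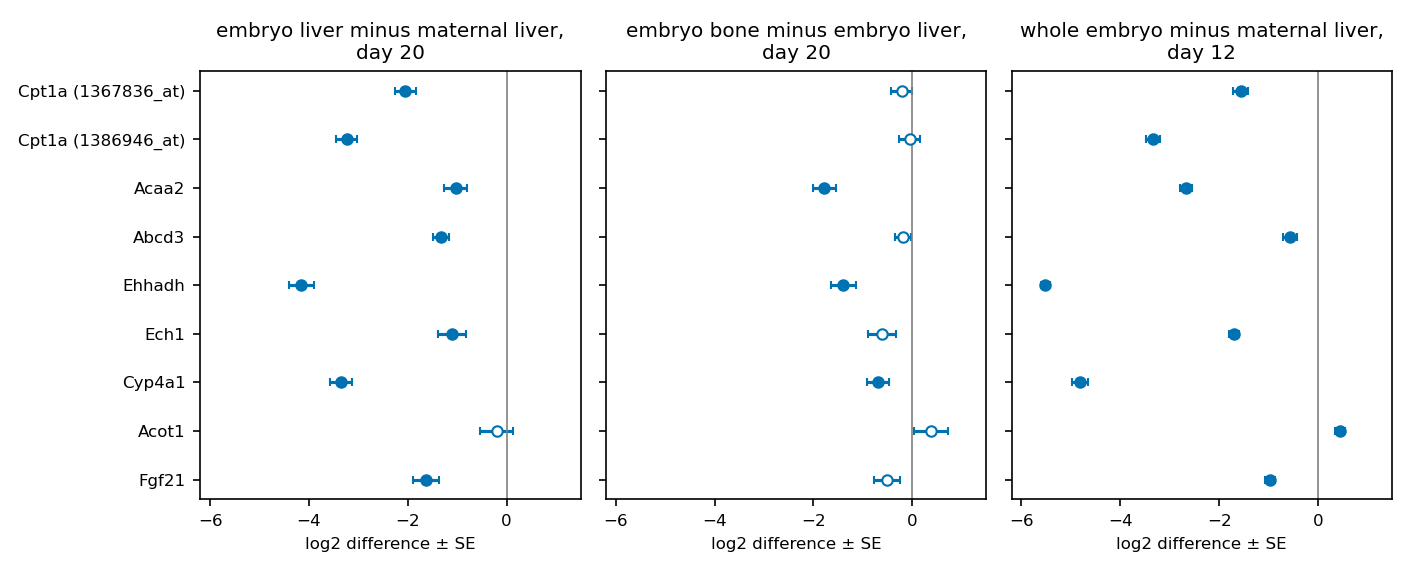
Differences between tissues (horizontal axis, log2 difference with its SE from limma) for each probe set; filled circles have an adjusted p under 0.05. Ehhadh and Cyp4a1 lie farthest left in both comparisons with maternal liver, and among the probe sets shown only that of Acot1 is right of 0 at day 12.

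The order of levels across the sets of arrays followed from these values. For Ehhadh and Cyp4a1 maternal liver of both days came first, with day 12 and day 20 not separated. Embryo liver followed, then bone and whole embryo, but for Cyp4a1 embryo liver (7.56 to 8.05) overlapped with bone (6.46 to 7.87). For both Cpt1a probe sets, Acaa2 and Fgf21 the maternal liver of day 20 came first and that of day 12 second. Embryo liver of day 20 overlapped with maternal liver of day 12 for Acaa2, Abcd3, Ech1 and Fgf21, but not for Cpt1a. Sets that differ in both tissue and day were not compared by a test.

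The high dose of EMD 82571 was next set against control in embryo liver, where a single array stands for each treatment and the differences are given as values first. In the EMD150 array, 3 of 9 probe sets were at least 2-fold lower than in the control and 0 were higher by as much, against 0.706% and 0.214% of all probe sets. These were Cpt1a (1386946_at), Ehhadh and Ech1. Acaa2 lay just short of that limit, at -0.99.

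Cpt1a probe set 1386946_at read 8.76 in the control, 8.01 in EMD50, 7.01 in EMD150 and 8.48 in RA. Ehhadh read 7.49, 7.12, 6.01 and 7.56 in the same order. Ech1 read 10.86, 10.43, 9.61 and 10.69. In each of these genes the EMD150 array was the lowest of the 4 and EMD50 the second lowest, and the differences of EMD150 from control were -1.75 (3.36-fold), -1.48 (2.80-fold) and -1.25 (2.38-fold). Acaa2 behaved alike, at 12.08, 11.84, 11.09 and 12.10. The count of 4 probe sets below all 3 other arrays is near the background, however, since 41% of all probe sets were lowest in that array and 32.4% were highest.

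The probe sets of Cpt1a disagreed here. The second, 1367836_at, read 9.60, 9.21, 9.63 and 9.38, so EMD150 was the highest by a narrow margin (0.03 above control). Cyp4a1 read 7.56 in the control and 8.05 in EMD150, Fgf21 7.41 and 7.58, Abcd3 8.60 and 8.28, and Acot1 6.05 and 5.76. None of these 4 was past 1.5-fold. The low values in EMD150 thus covered part of the group, and for Cpt1a depended on the probe set.

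The 83 other pathway genes had a median of -0.30 in the EMD150 embryo liver, against -0.04 over all probe sets. Of them 4 were at least 2-fold lower and 0 higher: Cyp4f1, a cytochrome of the omega-oxidation family (-1.54), Phyh, the first enzyme of alpha-oxidation (-1.14), Hacl1, the lyase after it (-1.11), and Eci1, a mitochondrial isomerase (-1.07). At 1.5-fold the counts were 24 lower (28.9%, against 5.31% of all probe sets) and 1 higher (1.2%, against 2.72%). In the EMD50 embryo liver they were 0 and 0, against 0.277% and 0.189% of all, and in the RA one 1 and 5, against 0.372% and 4.08%. The hepatocyte marker mean was 11.32 in the EMD150 array and 11.36 to 11.43 in the other 3, with Alb at 14.96 against 14.93 to 14.98. Of the 10 hepatocyte markers, 8 were lower than in the control and 2 higher, with a median of -0.15 against -0.04 over all probe sets. The macrophage marker mean, over 5 genes, was 9.56 against 9.89 to 10.003. The SD over all values of the array was 1.51 against 1.58 to 1.64. The part of hepatocytes, macrophages or the SD in these differences was not tested. After all arrays were given a common median and SD, or quantile normalised, the count of member probe sets at least 2-fold lower was again 3. The pathway counts at 1.5-fold were less one-sided with a common median and SD. Acsl1, Pecr, Txnip, Acat1, Etfa, Acadl and Decr1 were then no longer 1.5-fold lower. Acot7, Fads2, Cd36 and Rxrb joined Cpt1c at 1.5-fold higher. These genes, apart from Cpt1c, were chosen after their values were seen, as those that crossed that limit. The share of all probe sets at this scaling is not given here.

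A test within a single set of arrays was added after the data were seen. It gave every group its own mean over the 22 arrays, so that its spread came from the 2 pairs of RA arrays of day 12 alone, with 2 residual degrees of freedom, and the single arrays were assumed to vary like them. For EMD150 in embryo liver it called 0 of 9 probe sets and 5 of 15866 (0.0315%), while 4 of the 9 and 1618 of all had an unadjusted p under 0.05. Ehhadh was at -1.48 ± 0.24 (limma adjusted p = 0.154), Ech1 at -1.25 ± 0.26 (0.219), Cpt1a by 1386946_at at -1.75 ± 0.39 (0.248) and Acaa2 at -0.99 ± 0.23 (0.254). Without either RA array of whole embryo, 5 of 9 were called along with 2750 or 2752 of all probe sets, and without either RA array of maternal liver, 1 of 9 along with 87 or 90. The calls of this test thus depended on which pair set the spread.

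**Figure D5:**
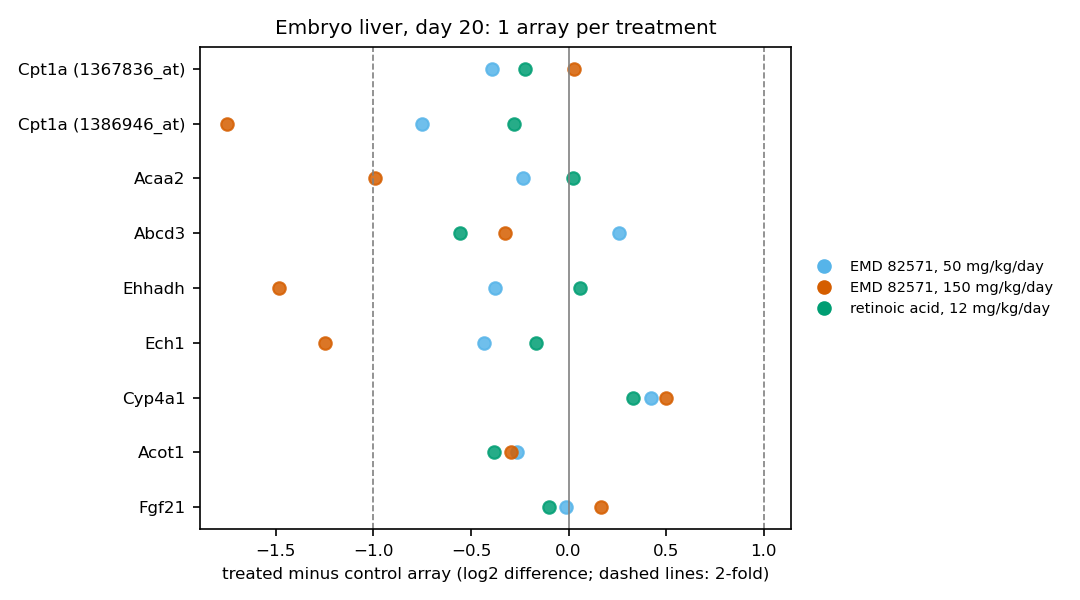
Treated minus control array in embryo liver at day 20 (horizontal axis, log2 difference) for each probe set, 1 array per treatment; dashed lines mark 2-fold. The EMD150 points of Cpt1a (1386946_at), Ehhadh and Ech1 lie left of the lower line, and that of Acaa2 lies on it at -0.99.

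Maternal liver at day 20 was the other set with large differences from the control array. Over all 5 sets, 11 of 135 member differences from control were at least 2-fold (0.971% of those of all probe sets), 8 in maternal liver of day 20 and 3 in the EMD150 embryo liver. In the RA liver 4 of 9 probe sets were lower by that much (0.265% of all) and 1 was higher (1.54% of all): Acot1, Ech1 (-1.59), Abcd3 (-1.20) and Cpt1a 1367836_at (-1.02) on the one side, and Fgf21 (1.02) on the other. In the EMD150 liver 2 of 9 were lower (0.145% of all), Acot1 and Ech1 (-1.21), and in the EMD50 liver 1 (0.113% of all), Acot1. All these values share the same control array, in which Acot1 was high and the acinar marker mean was 9.11, against 7.79 to 7.81 in the 3 treated livers. In the RA liver 11 of 11 skeletal muscle markers were above the control, by a median of 2.66. The part of either in these differences was not tested. In the test with a mean for every group, 1 of 9 probe sets was called for RA in this liver, Acot1 (-2.22 ± 0.22, limma adjusted p = 0.0254), against 0.189% of all probe sets. It was the 1 member call in the 15 such comparisons of a treatment with control (0.0895% of all probe sets called over them). With 1 of the paired RA arrays left out, more members were called in this liver, but the calls over all probe sets rose as well. Those counts are therefore no result about the members.

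Treatments were then tested over all 22 arrays with tissue and day held constant. EMD150 against control gave no call, with 0 of 9 probe sets and 0 of 15866 (0%) passing limma's adjusted threshold, although 2925 probe sets, 3 of them members, had an unadjusted p under 0.05. Ech1 was lower than control in 5 of 5 sets, by -0.42, -1.21, -1.25, -0.29 and -0.69 in maternal liver of day 12 and of day 20, embryo liver, bone and whole embryo, with an estimate of -0.77 ± 0.21 (limma adjusted p = 0.195). Cpt1a probe set 1386946_at was also lower in 5 of 5, at -0.63 ± 0.19 (limma adjusted p = 0.195), but the other, 1367836_at, in 2 of 5, at -0.05 ± 0.18 (0.889). Acaa2 was lower in 4 of 5, at -0.41 ± 0.18 (limma adjusted p = 0.249). No alternative gave a member call, the adjusted p of Ech1 being 0.0855 at the least. EMD50 gave 0 calls too (0% of all), with 253 unadjusted, 1 of them a member, Ech1, at -0.49 ± 0.21. Being below control in each set was not particular to EMD150. With EMD50, Ech1 differed from control by -0.27, -0.47, -0.43, -0.93 and -0.37 in the same order of sets. With RA it was lower in 5 of 5 sets, by -0.02 to -1.59, and Cpt1a 1386946_at in 3 of 5. Each treatment was set against the same control arrays. The share of all probe sets lower in 5 of 5 sets is not given here.

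With RA 1 of 9 probe sets was lower than control, that of Abcd3, while 0.0567% of all probe sets were lower and 1.83% changed. Relative to the control of each set, Abcd3 differed by 0.04 in maternal liver of day 12, -1.20 in that of day 20, -0.56 in embryo liver, -0.59 in bone and -0.93 in whole embryo. In whole embryo the control read 8.66, EMD50 8.42, EMD150 8.38 and the RA arrays 7.71 and 7.75, and in bone the order was 8.43, 8.34, 8.42 and 7.84. RA arrays were the lowest in 4 of 5 sets. The estimate was -0.60 ± 0.15 (limma adjusted p = 0.0393). It was not called under array weights (adjusted p = 0.0705), nor without any 1 of the controls of bone, embryo liver, whole embryo or maternal liver of day 20, any RA array outside maternal liver of day 12, or the EMD150 whole embryo (0.0531 to 0.148). Without the RA arrays of bone, of maternal liver at day 20 and of whole embryo coded RA56, a set of 3 taken from earlier results of these data, it was -0.39 (limma adjusted p = 0.491).

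Set directly against RA, EMD150 had higher Abcd3, by 0.49 ± 0.15 (limma adjusted p = 0.0337), the 1 member called among 9; of all probe sets 6.49% were higher and 14.4% changed. That call fell away without the EMD150 array of bone, whole embryo or maternal liver of day 20, or the RA array of bone, embryo liver, maternal liver of day 20 or whole embryo coded RA56 (adjusted p of 0.0575 to 0.0968). Of the 83 pathway genes, 2 were called for RA against control (2.41%, against 1.83% of all probe sets), both higher. They were Cd36, a fatty acid transporter (0.84 ± 0.20, limma adjusted p = 0.0401), and Lpin1, a phosphatidate phosphatase and coactivator (0.49 ± 0.12, 0.0413). Between EMD150 and RA, 2 of the 83 were higher with EMD150 (2.41%, against 6.49% of all probe sets) and 6 lower (7.23%, against 1252 of 15866). Together 9.64% were called, against 14.4% of all probe sets, so this share is below the background. Those lower included Acsl4, an acyl-CoA ligase (-0.86 ± 0.19, 0.0114), Crot, the peroxisomal carnitine transferase (-0.72 ± 0.17, 0.0157), and Etfdh, which passes electrons from acyl-CoA dehydrogenases to the respiratory chain (-0.50 ± 0.15, 0.0316). Those higher with EMD150 were Cpt1c, a brain form of the Cpt1 enzyme (0.40 ± 0.11, 0.0265), and Abcd2, a peroxisomal transporter (0.26 ± 0.07, 0.0312).

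Whether the mother and the conceptus (embryo liver, bone and whole embryo) responded differently was tested as well. No member was called for EMD150 or RA in maternal liver, in the conceptus or in the difference between them; of all probe sets 0%, 0% and 0% were called for EMD150 and 0.0756%, 1.9% and 0% for RA. Of the members, 1 of 9 had an unadjusted p under 0.05 for the difference with EMD150 and 0 with RA. Ehhadh was at 0.05 ± 0.27 for EMD150 in maternal liver, not called, and at -0.57 ± 0.22 in the conceptus (limma adjusted p = 0.203). In the conceptus its difference was -1.48 in embryo liver, -0.17 in bone and -0.07 in whole embryo. The conceptus estimate thus rested mainly on embryo liver, with 1 array per treatment. Without the control maternal liver of day 12, Acot1 was called in maternal liver for EMD150 (-2.08, limma adjusted p = 0.0228) and RA (-2.17, 0.00517), an estimate that then rests on the day 20 control, where Acot1 read 7.62. Of the 83 other pathway genes 1 was called in these comparisons, Fabp1, the liver fatty acid binding protein, which was higher with RA in the conceptus (1.26 ± 0.26, limma adjusted p = 0.0213). Fabp1 read 11.32 in the control and 12.34 in the RA embryo liver, 6.495 and 8.46 in bone, and 6.13 in the control against 6.55 (RA5) and 7.84 (RA56) in whole embryo. The RA array was above the control in each set, and the RA56 embryo was also the one with the highest Alb, whose part was not tested. Fabp1 no longer passed when the bone or whole embryo control was left out, or the RA array of bone or embryo liver, or RA56 of whole embryo (adjusted p of 0.0517 to 0.154), nor without the 3 RA arrays named above (0.71, limma adjusted p = 0.215). Abcd3 was called for RA in the conceptus with array weights (-0.60, limma adjusted p = 0.0433) or without the RA maternal liver of day 20 (-0.72, 0.00694).

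The members were finally set against all other genes by their profile over the 22 arrays, as a description, since these arrays share tissues. Ehhadh was closest to Rdh7, a retinol dehydrogenase of liver (Pearson r = 0.99), Igfals and Suox, and Cyp4a1 to Cyp2d3 (0.99), Ces1e and Cyp2b3, which are liver-rich genes. Cpt1a was closest to Epas1 (0.96), Slc25a42 (0.94), a mitochondrial coenzyme A carrier, and Glmp. Acaa2 was closest to Acad10 (0.98), Ech1 to Il6st (0.94), Abcd3 to Ptprs (0.92) and Fgf21 to Oas1a (0.96). Acot1 had no close partner, the nearest being Aig1 (0.62).

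With the mean of each set subtracted, so that only treatment and array differences were left, the closest genes changed. Acaa2 was then nearest to Slc25a20 (r = 0.92), the carnitine carrier, Ech1 to Hacl1 (0.86), and Ehhadh to Slc16a12 (0.91), Tcim (0.90) and Echdc3 (0.87). Fgf21 was nearest to Pvalb (0.86), a skeletal muscle gene and 1 of the 11 muscle markers, and Abcd3 to Rgs12 (0.89). These r values are a description too. Acaa2, Slc25a20, Ech1, Hacl1 and Ehhadh were each lower in the EMD150 embryo liver than in every other embryo liver. The same held for 41% of all probe sets. Fgf21 was highest in the RA maternal liver that carried muscle markers. The part of single arrays in these r values was not tested. The Cpt1a probe sets had an r of 0.94 with each other over the 22 arrays, and of 0.09 with the means subtracted.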

How the data were processed

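RNA of 22 rat samples was measured on single-colour arrays, 1 array per sample. The deposited values are log2 probe set levels made by the authors with RMA, which corrects, normalises and summarises the probes of a set, per the submitters' processing notes; the version is not stated there. RMA shrinks differences of dim probe sets. The number of arrays limits the precision. The 57 array controls were left out and 15866 probe sets tested without a filter. Probe sets were named from GEO's platform annotation (12783 with 1 symbol, 312 with several, 2771 with none), of which 12748 had a gene identifier in RefSeq's table (GRCr8).

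Linear models came from limma 3.58.1 (R 4.3.3; eBayes with an intensity trend, two-sided, Benjamini-Hochberg over all probe sets, 14 comparisons, call at an adjusted p under 0.05) and were tested on simulated data. Days used the 9 maternal liver arrays, and tissues the 12 arrays of day 20 or the 10 of day 12, with treatment as a block; residual degrees of freedom were 4, 6 and 5. Treatments used all 22 arrays with tissue and day as a block (14 degrees of freedom), and 11 where maternal liver and conceptus had their own effects. A test of each treatment within each set of arrays (15 comparisons, 2 degrees of freedom) was added after the data were seen. Alternatives were no trend, quantile or common SD scaling, a filter on dim probe sets, array weights, no block and left-out arrays.

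The pathway list held 100 genes, of which 83 had a probe set of their own, and 1 probe set, the one with the highest mean, stood for a gene. The members and lists were chosen with earlier results of these data known. Named were all member probe sets, per comparison up to 3 called list genes per direction by size of difference, in the EMD150 embryo liver up to 5 per direction past 2-fold, and for each member the 3 genes with the highest Pearson r; other names are said to be chosen after their values were seen.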

Additional observations from a re-analysis of the deposited data

How the results depend on the processing

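No paired analysis was possible because the labels give no replicate numbers shared between treatment groups; RA5 and RA56 exist for retinoic acid only. No direction was reversed for the counts of members called. From day 12 to day 20 in maternal liver, leaving out 1 array gave 3 to 6 probe sets called (5 with all), and 183 to 1650 of all probe sets (965 with all). For embryo bone against embryo liver, array weights gave 5 in place of 3, adding Ech1 and Cpt1a. For RA against control over all arrays, the 1 call became 0 under array weights, 0 without the 3 RA arrays of bone, maternal liver of day 20 and whole embryo (RA56), and 0 to 1 with 1 array left out. For EMD150 against RA it became 0 without those 3 RA arrays and 0 to 2 with 1 left out. With 1 array left out, EMD150 and RA against control in maternal liver each gave 0 to 1, and RA against control in the conceptus 0 to 1, with 1 under array weights. Member counts were otherwise within 1.5 times those of the report. In embryo liver 4 member probe sets were lower in the EMD150 array at 1.5-fold, against 3 at 2-fold. The pathway counts at 1.5-fold in that array changed with a common median and SD, as given above. The added test with a mean for every group called 0 there, and 1 for RA in maternal liver of day 20. With 1 of the paired RA arrays of day 12 left out, both counts rose, along with those of all probe sets. The EMD50 bone array left out alone is among the arrays left out in turn. For the 83 pathway genes the day counts ran from 2 to 15 higher and 1 to 8 lower.

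The main limit is 1 array for most treatments in each tissue: treatment effects rest mainly on different tissues as repeats, and a test within a single tissue has only the 2 pairs of RA arrays for its spread. Without 1 array of a treatment, the fit assumes that the rest vary alike. The cause of the lost and gained calls was not tested beyond the smaller number of arrays. The dim probe sets of Acot1 in most arrays, near 5.5, and Ehhadh in bone and whole embryo, lie close to the lowest value of the table (4.86), where differences are compressed. The 17 pathway genes listed but without a probe set of their own were not analysed here.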

Other observations

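The Cyp4a1 probe set, whose annotation is uncertain, can be read beside the other Cyp4 probe sets. The probe set named Cyp4b1 (1370399_at) ranged from 9.01 to 9.51 in maternal liver of day 20 and from 8.98 to 9.06 in embryo liver, a narrow gap beside that of the Cyp4a1 one, whose embryo minus maternal difference was -3.35. Over the 22 arrays their Pearson r was 0.83, as a description. The probe set of Cyp4a3, another omega-hydroxylase of rat liver, lay between 12.06 and 12.46 in maternal liver of day 12 and between 12.35 and 12.64 at day 20. Its embryo liver values ran from 11.08 to 11.37 and its bone values from 8.74 to 9.80. Cyp4a8 was higher in embryo liver (8.29 to 8.94) than in maternal liver of day 20 (7.94 to 8.24), so the members of this family did not share 1 tissue order.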
